A study of Rattus norvegicus with 16 samples.

Results

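The 10 genes described here form the interleukin-1 system and the inflammasome that feeds it: Il1b, Il1rn, Il1r1, Il1r2, Il1rap, Il18, Casp1, Nlrp3, Pycard and Casp4. They were chosen by symbol, and each of the 10 had a single entry among the 26405 genes listed in any count table and was listed for every library. The libraries were RNA-seq of whole blood from 16 adult male Sprague-Dawley rats, 85 to 90 days old, drawn by cardiac puncture. Every rat had received 4 saline injections of 1 ml/kg spaced 2 h apart and was killed 3 h after the last. All 16 libraries belong to that single group of saline controls, so no treated group was compared. The comparisons that remain are the spread of each gene among the 16 animals, the differences between libraries with different name codes, and which of these genes moved together from animal to animal.

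Interleukin-1 beta is made as an inactive precursor, chiefly by neutrophils and monocytes in blood, and is cut to its active form by caspase-1. Caspase-1 is itself switched on in the inflammasome, a complex in which the sensor NLRP3 recruits the adaptor ASC, the product of Pycard. The active cytokine binds the receptor Il1r1 together with the accessory protein Il1rap and signals through MyD88 to NF-kB, while the antagonist Il1rn and the decoy receptor Il1r2 hold that signal back. Interleukin-18 is matured by the same caspase, and caspase-4 of the rat senses bacterial lipopolysaccharide inside the cell.

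The estimated counts summed to between 21466776 and 31189549 per library. The library names carried 6 codes, called A to F here, of which code A (controls 1 to 3, n = 3), code B (controls 4, 5, 7, 8 and 10, n = 5) and code D (controls 11 to 14, n = 4) could be compared, while codes C (controls 6 and 9), E (control 15) and F (control 16) held too few libraries. The labels do not say what the codes mark. The study dosed its control animals in several separate periods, and the labels do not tie an animal to a period, so a difference between codes and one between periods cannot be told apart. Levels below are normalized counts, that is counts divided by a size factor of the library, and they were not corrected for transcript length, so levels are compared between animals and not between genes. Control 2 stood apart by its liver transcripts (summed level of 8 markers 505090, median of the 16 libraries 13643), control 8 by its neutrophil transcripts (summed level of 13 markers 1182300, median 216570) and control 12 by its thymus transcripts (summed level of 4 markers 5769.6, median 33.4). The liver median was mostly Tf (median 12673), whereas Alb had 330270 in control 2 and a median of 17.5. Control 12 was also highest in fat transcripts (summed level of 4 markers 4030, median 739), with Adipoq at 1042 against a median of 1.32. Several of the results below are therefore also given without these controls. Transcripts of red cells, platelets, neutrophils, monocytes, T cells and B cells were present in every library, which fits the whole blood label, while the summed level of 5 heart muscle markers ran from 0 in control 8 to 414 in control 10.

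The sequence just upstream of the start is shown for 4 of these genes. Of these, 3 carried a searched motif, namely Il1b, Il1rn and Nlrp3, and Pycard is an example without one. Each sequence is 250 bases of RefSeq on the rat build GRCr8, 5′ to 3′ on the strand of the gene and ending next to the start. Capitals mark the motif matches.
Il1b (chr3:137036582-137036831, minus strand): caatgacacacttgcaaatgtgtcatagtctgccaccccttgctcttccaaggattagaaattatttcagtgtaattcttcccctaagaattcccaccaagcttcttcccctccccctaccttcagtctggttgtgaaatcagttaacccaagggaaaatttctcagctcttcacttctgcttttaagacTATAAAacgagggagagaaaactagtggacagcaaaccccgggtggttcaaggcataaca
Il1rn (chr3:27520072-27520321, plus strand): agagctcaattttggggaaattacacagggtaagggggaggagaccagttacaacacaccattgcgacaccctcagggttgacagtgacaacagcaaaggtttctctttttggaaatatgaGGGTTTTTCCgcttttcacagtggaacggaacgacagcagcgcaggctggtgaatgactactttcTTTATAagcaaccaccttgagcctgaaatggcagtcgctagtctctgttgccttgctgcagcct
Nlrp3 (chr10:44827848-44828097, plus strand): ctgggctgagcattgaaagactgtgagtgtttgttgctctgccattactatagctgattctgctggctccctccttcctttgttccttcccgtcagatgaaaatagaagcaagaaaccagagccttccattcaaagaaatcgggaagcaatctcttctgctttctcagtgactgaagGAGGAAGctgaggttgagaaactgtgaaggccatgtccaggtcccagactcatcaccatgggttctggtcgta
Pycard (chr1:192033420-192033669, minus strand): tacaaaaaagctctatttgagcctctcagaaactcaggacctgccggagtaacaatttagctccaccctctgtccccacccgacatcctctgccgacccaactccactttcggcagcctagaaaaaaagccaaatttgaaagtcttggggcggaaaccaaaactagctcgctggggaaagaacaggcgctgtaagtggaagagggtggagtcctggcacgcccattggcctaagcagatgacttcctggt
RefSeq promoter entries were matched for 8 of the 10 genes, all but Il1r2 and Casp4. The motifs were searched on both strands as NF-kB (GGGNNTTTCC), AP-1 (TGANTCA), C/EBP (TTGCNNAA), PU.1 (GAGGAAG) and the TATA box (TATAAA), and no match overlapped another. Counted from the start, Il1b held a TATA box at -60 to -55. Il1rn held an NF-kB match at -129 to -120 and a TATA box on the opposite strand at -64 to -59. Nlrp3 held a PU.1 match at -73 to -67. Among 33469 RefSeq promoters of the same length, 1.3% held the NF-kB letters, 6.34% those of AP-1, 9.22% those of C/EBP, 10.2% those of PU.1 and 12.9% those of the TATA box. Il1r1, Il1rap, Il18, Casp1 and Pycard held none of the 5 in this window, and a match describes letters and not a bound factor. Of the genes without a match, Il1r1, Il1rap and Casp1 rose with Il1b in the fit given further on, and Il18 and Pycard were not called.

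The ligand and its antagonist both varied widely among these saline-treated animals. Il1b (ENSRNOG00000004649) averaged 18408 ± 11581 normalized counts (SD, n = 16), with the lowest level of 4235 in control 6, a median of 17494 and the highest level of 52259 in control 8, a 12.3-fold range. Il1rn (ENSRNOG00000005871), which occupies the receptor without signaling, averaged 10438 ± 13097 (SD, n = 16) and ran from 1856 in control 6 through a median of 6471 to 50884 in control 8, a 27.4-fold range. Controls 8 and 14 held the first and second place for both genes, and control 6 was last for both. The count of Il1rn relative to that of Il1b in the same library was lowest at 0.213 in control 2, had a median of 0.416 and reached 1.06 in control 14. Controls 14 and 8, the animals with the most ligand transcript, were also those with the highest such ratio.

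The receptors Il1r1 and Il1r2 had the widest ranges of the 10 genes. Il1r2 (ENSRNOG00000014378), the decoy receptor, averaged 11711 ± 12821 (SD, n = 16), with 688 in control 6, a median of 7564 and 47325 in control 8, a 68.8-fold range. Il1r1 (ENSRNOG00000014504), the signaling receptor, averaged 464 ± 519 (SD, n = 16), with 22.1 in control 6, a median of 240 and 1499 in control 8, a 67.9-fold range. Il1rap (ENSRNOG00000001928), the accessory protein of that receptor, averaged 1949 ± 1931 (SD, n = 16) and ran from 437 in control 2 through a median of 953 to 6165 in control 14, a 14.1-fold range. The count of Il1r2 was between 13.4 times (control 9) and 73.4 times (control 15) that of Il1r1, with a median of 28.8, so decoy transcripts gave more counts than those of the signaling receptor in each of the 16 libraries, before any correction for length. Controls 6, 3 and 4 held the 3 lowest levels of Il1r1, and controls 8, 14 and 9 the 3 highest.

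The second cytokine matured by caspase-1 ranked the animals differently. Il18 (ENSRNOG00000009848) had the fewest counts of the 10, with an average of 98.0 ± 51.7 normalized counts (SD, n = 16), 21.9 in control 3, a median of 105 and 177 in control 9. Its lowest deposited count was 22, and counting error alone would give a coefficient of variation (CV) of about 10.2% at its mean count against the 52.7% observed. Control 8, which led in Il1b, ranked 8 of 16 in Il18, and control 10, which ranked 15 in Il1b, ranked 2 in Il18. As a result the count of Il1b was 35.9 times that of Il18 in control 10 and 589 times in control 12, a 16.4-fold spread of the ratio.

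Among the inflammasome genes the sensor varied and the adaptor and the caspase were steady. Nlrp3 (ENSRNOG00000003170) averaged 3216 ± 1814 (SD, n = 16), with 1020 in control 2, a median of 3510 and 7160 in control 8, a 7.02-fold range. Casp1 (ENSRNOG00000007372) averaged 1411 ± 315 (SD, n = 16), with 946 in control 4, a median of 1353 and 2143 in control 8, a 2.27-fold range. Pycard (ENSRNOG00000019675) averaged 1093 ± 209 (SD, n = 16), with 678 in control 4, a median of 1116 and 1660 in control 3, a 2.45-fold range. Casp4 (ENSRNOG00000033697) averaged 251 ± 97.6 (SD, n = 16) and ran from 133 in control 6 through a median of 231 to 554 in control 8, a 4.18-fold range. Control 8 was highest for Casp1, Nlrp3 and Casp4 and yet ranked 14 of 16 for Pycard, so that its ratio of Casp1 to Pycard counts was the highest of the 16 at 2.34 against a median of 1.23.

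**Figure D1:**
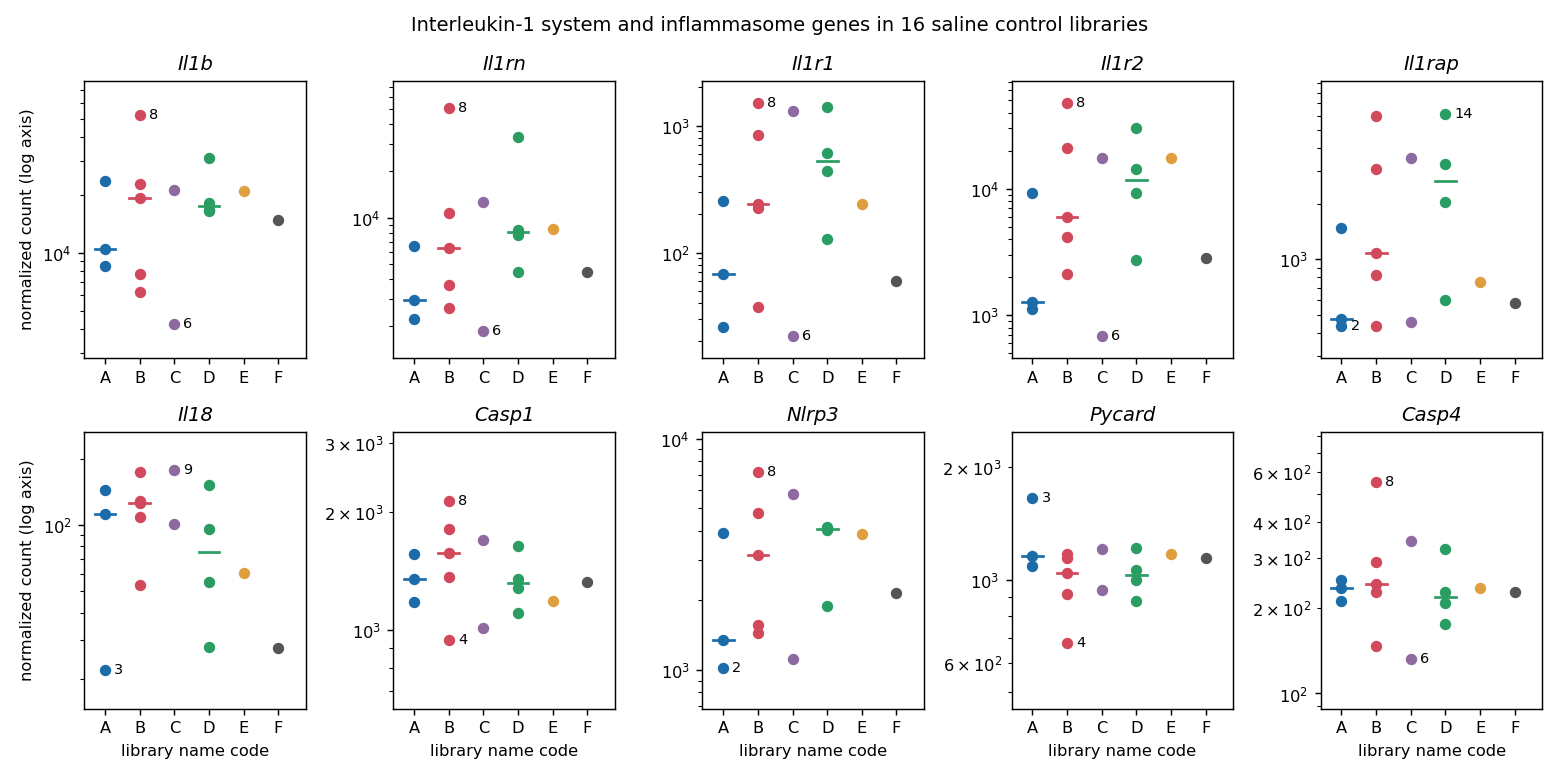
Normalized count (log axis) of each of the 10 genes by library name code, 1 point per library, with a bar at the median of codes A, B and D, and with the number of the lowest and highest control printed. Casp1 and Pycard span 2.27-fold and 2.45-fold, whereas Il1r1 and Il1r2 span 67.9-fold and 68.8-fold, and the points of codes A, B and D overlap in every panel.

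The spread of the 10 genes was set beside that of all genes. The median CV over 10063 genes with a mean of at least 50 normalized counts was 25.7%, and 8 of the 10 genes lay above it. Il1rn had the highest CV at 125%, above 96.9% of those genes, followed by Il1r1 at 112%, Il1r2 at 109%, Il1rap at 99.04%, Il1b at 62.9%, Nlrp3 at 56.4%, Il18 at 52.7% and Casp4 at 38.8%. Casp1 at 22.4% and Pycard at 19.1% lay below it. Counting error at the mean counts came to between 0.740% for Il1b and 10.2% for Il18, well under the observed spread for every one of the 10. These CVs are a description, without a test.

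None of the 10 genes was called different between codes. The libraries of codes A, B and D were fitted together (12 libraries) with the edgeR quasi-likelihood test, and with Benjamini-Hochberg adjustment over 12952 genes, 0 of 10 passed an adjusted p of 0.05 between codes A and B and 0 of 10 between codes A and D, where the share over all genes was 0% in both. Between codes B and D 0 of 10 passed, where 2.3% of all genes did. At an unadjusted p under 0.05 edgeR also gave 0 of 10 in each comparison, where 13.6%, 5.41% and 11.3% of all genes were under it, so that 0 of 10 is close to the share over all genes. Without control 1 edgeR gave 4 of 10 both between codes A and B and between codes A and D. Between codes A and D it gave 3 of 10 without control 8 and 2 of 10 without control 12. Without control 4 it gave 1 of 10 between codes A and B and 1 of 10 between codes A and D. Total count scaling gave 1 of 10 in each comparison. The DESeq2 test gave 1 of 10 between codes A and B and 2 of 10 between codes A and D. In these fits 0 of 10 passed after adjustment. The unadjusted share over all genes is not given for them, so these counts cannot be read as particular to the 10 genes. The counts over all genes rested on single libraries: between codes A and B edgeR called 506 of 12890 genes without control 4, and between codes B and D the 298 genes called became 2 or 3 without any 1 of controls 5, 11, 13 or 14 and were more than 298 without control 4. DESeq2 and limma-voom also called 0 of the 10 in all 3 comparisons. The receptors showed the largest differences with wide errors: Il1r1 averaged 117 ± 123 under code A (SD, n = 3), 570 ± 603 under code B (SD, n = 5) and 644 ± 539 under code D (SD, n = 4). Its fitted log2 difference of code D over code A was 2.46 ± 1.17 (SE) with an adjusted p of 0.92 by edgeR. With ranges that overlap this widely, a difference between codes was not detectable at this number of libraries, and that does not show that they were alike.

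Most of the 10 genes rose and fell together from animal to animal. Pearson's r was taken on log2(normalized count + 1) over the 16 libraries, with two-sided permutation tests of 100000 resamples. Of the 45 pairs computed, 13 were fixed as relations of interest, namely Il1b with the 9 others and Casp1 with Nlrp3, Pycard, Casp4 and Il18. Of these 13, 9 had an unadjusted p under 0.05. The adjusted p that goes with the relation to Il1b is that of the fit over all genes, given further on.

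By Pearson's r Il1b rose most closely with its antagonist and with the sensor, whereas by Spearman's rho Il1r2, Il1r1 and Casp4 came between these. With Il1rn r was 0.90 (rho 0.91, permutation p = 2e-05 for r and 1e-05 for rho), and it stayed at 0.84 without controls 6 and 8, the 2 libraries farthest from the median of Il1b. With Nlrp3 r was 0.88 (rho 0.84, permutation p = 1e-05 and 9e-05), and 0.84 without those libraries. With Il1r2 r was 0.87 (rho 0.90, permutation p = 1e-05 for both), and 0.79 without them. The value of 1e-05 is the smallest that these permutations can give. Il1r1 (r = 0.81, permutation p = 0.00012), Il1rap (r = 0.78, permutation p = 0.00021) and Casp4 (r = 0.82, permutation p = 0.00014) followed, with rho of 0.86, 0.82 and 0.84, and with r of 0.71, 0.72 and 0.62 without controls 6 and 8. Centred within codes, r of Il1b with these 6 genes lay between 0.86 and 0.92, so the relation was also there among libraries of the same code.

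Casp1 followed Il1b less closely, and no relation was detected for Il18 and Pycard. For Casp1 r was 0.63 (rho 0.53, permutation p = 0.0086 and 0.037). It was 0.34 (permutation p = 0.23) without controls 6 and 8, so the relation was not detected without those libraries. Without controls 2, 8 and 12 it was 0.50 (permutation p = 0.082). Centred within codes it was 0.73 (permutation p = 0.00145, likely too small for the reason given further on). For Il18 r was 0.12 (rho 0.24, permutation p = 0.66 and 0.37) and for Pycard 0.0036 (rho -0.044, permutation p = 0.99 and 0.87). The caspases went together, with r of 0.89 between Casp1 and Casp4 (rho 0.77, permutation p = 2e-05 and 0.00078), and 0.80 without controls 4 and 8, the libraries farthest from the median of Casp1. The count of Casp1 relative to Casp4 accordingly kept within a 1.97-fold range, from 3.87 in control 8 to 7.63 in control 6.

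Among the partners of the inflammasome the relations with Casp1 were weaker and changed with the libraries used. Casp1 with Nlrp3 gave r of 0.51 (rho 0.42, permutation p = 0.046 and 0.11), which was 0.59 (permutation p = 0.016) once centred within codes and 0.30 (permutation p = 0.30) without controls 4 and 8. Casp1 with Pycard gave 0.33 (rho 0.24, permutation p = 0.21 and 0.37), 0.54 (permutation p = 0.031) once centred within codes, 0.55 (permutation p = 0.048) without controls 2, 8 and 12 and 0.32 (permutation p = 0.28) without controls 4 and 8. Casp1 with Il18, its other substrate, gave 0.086 (rho 0.19, permutation p = 0.75 and 0.48). Values centred within codes were permuted over all libraries, without allowance for the code means taken out. The permutation p-values of centred values are therefore likely too small.

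**Figure D2:**
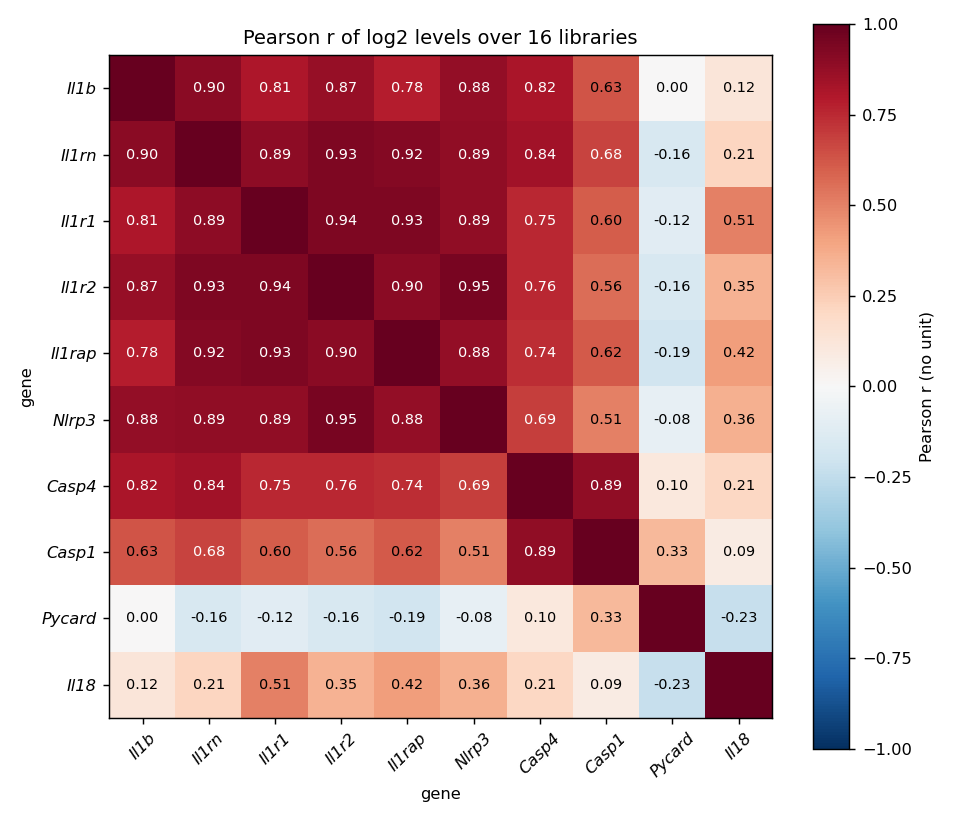
Pearson r of the log2 levels of each pair of the 10 genes over the 16 libraries, with the genes on both axes and the value printed in each cell. Il1b, Il1rn, Il1r1, Il1r2, Il1rap and Nlrp3 form a block with r between 0.783 and 0.946, and the rows of Pycard and Il18 stay pale.

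The matrix of all 45 pairs held a block of 6 genes, grouped here after their values were seen and so given without a test. Il1b, Il1rn, Il1r1, Il1r2, Il1rap and Nlrp3 had r of 0.783 to 0.946 in their 15 pairs, and at least 0.755 without controls 2, 8 and 12. The highest was Il1r2 with Nlrp3. The 17 pairs that include Il18 or Pycard had r of -0.228 to 0.508, with the highest for Il18 and Il1r1. All points share the same libraries, so the pairs are not independent of each other.

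**Figure D3:**
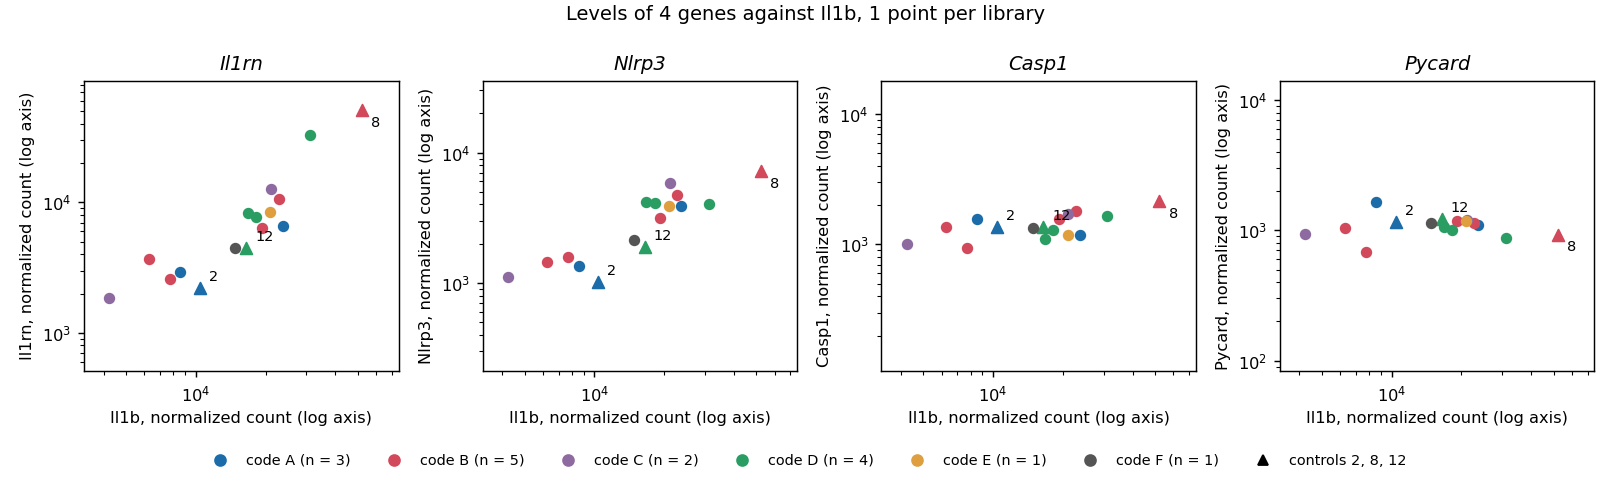
Levels of Il1rn, Nlrp3, Casp1 and Pycard against Il1b in normalized counts (log axes of the same width for each gene), 1 point per library, coloured by library name code, with triangles for controls 2, 8 and 12. Across the 16 libraries Il1rn and Nlrp3 climb with Il1b (r of 0.90 and 0.88), Casp1 climbs little and Pycard stays level (r of 0.0036), with control 8 at the far right of each panel.

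The same question was put to all genes at once in a fit of the slope on Il1b, where a slope of 1 means that a gene changed by as many log2 units as Il1b did. Of the other 9 genes, 7 rose with Il1b at an adjusted p under 0.05 by edgeR and 0 fell, where 12.5% of the 12530 other genes tested rose and 6.95% fell. The median slope of the 9 was 0.85 and that of all genes -0.05. The receptors had the steepest slopes, at 1.63 ± 0.25 (SE) for Il1r2 (adjusted p = 0.00032) and 1.598 ± 0.35 for Il1r1 (adjusted p = 0.0046). Il1rn had 1.30 ± 0.15 (adjusted p = 7.84e-05) and Il1rap 1.19 ± 0.23 (adjusted p = 0.0015). Those 4 estimates lie above 1, although their difference from 1 was not tested. Nlrp3 had a slope of 0.85 ± 0.12 (adjusted p = 0.00023) and Casp4 one of 0.43 ± 0.077 (adjusted p = 0.0011). Casp1 had the smallest slope called, 0.21 ± 0.070 (adjusted p = 0.047), and Il18 (0.05 ± 0.24, adjusted p = 0.89) and Pycard (-0.03 ± 0.086, adjusted p = 0.85) were not called.

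The call for Casp1 was lost without control 8 (slope 0.16, adjusted p = 0.23) and without any 1 of controls 4, 5, 6, 7, 9, 12, 13, 14 or 16, while the other 6 genes kept theirs when any single library was left out. Without both controls 6 and 8, 4 of 9 were called, namely Il1rn, Il1r2, Il1rap and Nlrp3, where 1184 of 12553 genes were called in all. Il1r1 then had a slope of 1.57 ± 0.48 (SE, adjusted p = 0.055 by edgeR), close to that over 16 libraries but with a wider error, Casp4 one of 0.29 ± 0.10 (adjusted p = 0.092) and Casp1 one of 0.14 ± 0.10 (adjusted p = 0.42). Without controls 2, 8 and 12, 6 of 9 were called (all but Casp1 of the 7), with slopes from 0.35 for Casp4 to 1.67 for Il1r1.

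Neutrophil transcripts moved with this group. Of 13 neutrophil markers, 11 were abundant enough to be tested, and 10 of them rose with Il1b by edgeR, all but Ngp. S100a9 and S100a8, the calprotectin subunits, had slopes of 1.37 ± 0.21 (SE) and 1.47 ± 0.24, and Csf3r, the receptor for granulocyte colony-stimulating factor, 1.04 ± 0.13. The summed level of the 13 markers ran from 36042 in control 6, the animal lowest in Il1b, to 1182300 in control 8, the animal highest in it. S100a9 and S100a8 made up most of that sum, with means of 180930 and 100640 normalized counts. Csf3r came next with 21738. The sum, also where it serves as a further term below, thus mainly follows the calprotectin subunits. Mpo, a marker of granulocyte precursors, was at 0 in 3 libraries. In bulk blood, fewer cells of a type and less RNA per cell cannot be told apart.

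The log2 sum of the neutrophil markers had r of 0.98 with Il1r2, 0.95 with Il1r1, 0.94 with Nlrp3, 0.93 with Il1rn, 0.88 with both Il1b and Il1rap, 0.79 with Casp4, 0.63 with Casp1, 0.33 with Il18 and -0.04 with Pycard over the 16 libraries, given as a description without a test. The order is thus close to that of the slopes on Il1b, with the receptors first and Pycard last. Without controls 2, 8 and 12, r was 0.98 with Il1r2, 0.94 with Il1r1, 0.93 with Nlrp3 and 0.92 with Il1rn. It was then 0.87 with Il1b, 0.85 with Il1rap, 0.80 with Casp4, 0.56 with Casp1, 0.38 with Il18 and 0.11 with Pycard. Without the 2 libraries farthest from the median sum, r was 0.405 with Casp1, 0.65 with Casp4 and 0.418 with Il18. When that sum was added to the fit on Il1b as a further term, a fit chosen after the data were seen, 0 of the 9 genes were called by edgeR, with 0 at an unadjusted p under 0.05, and the single gene called in all was Il1b itself. The slopes were then 0.53 ± 0.29 (SE) for Il1rn, 0.28 ± 0.16 for Casp4, 0.21 ± 0.20 for Nlrp3, 0.09 ± 0.22 for Il1r2, -0.07 ± 0.39 for Il1rap and -0.37 ± 0.34 for Il1r1. Il1b and the neutrophil sum are themselves related with r of 0.88, so a fit with both separates them poorly.

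**Figure D4:**
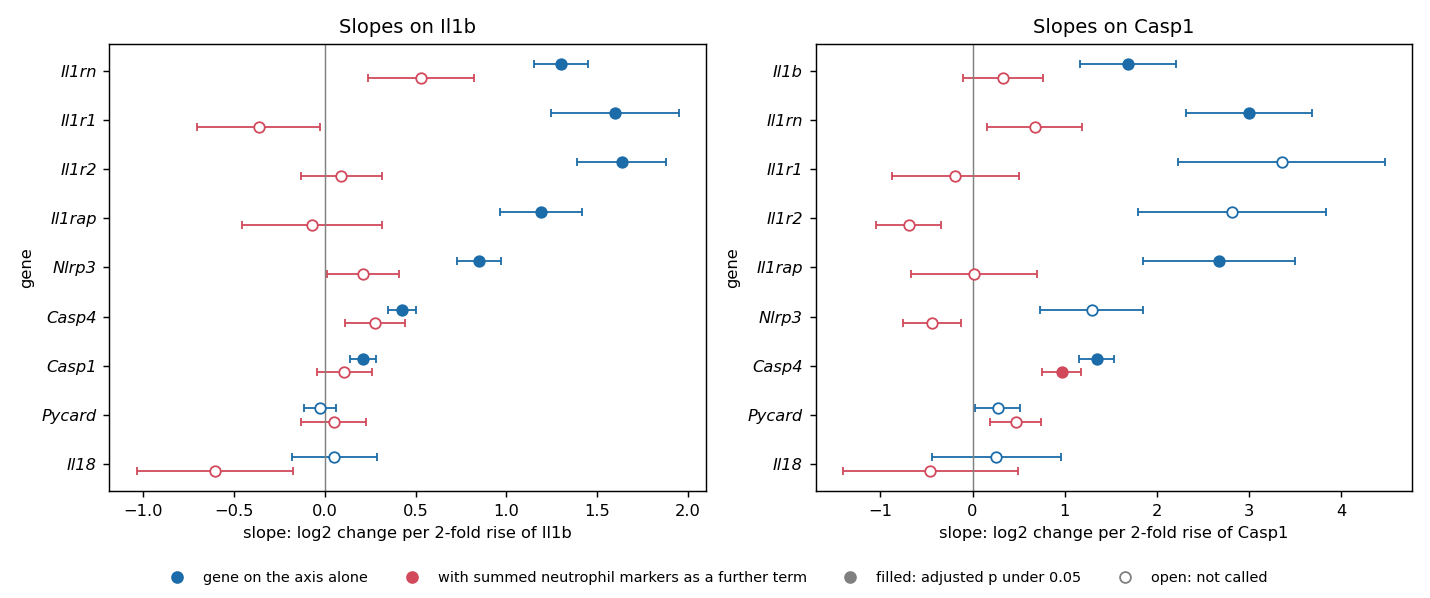
Slope of each gene on Il1b (left) and on Casp1 (right), in log2 units per log2 unit, as points with bars of 1 SE, from fits over 16 libraries with that gene alone (blue) or with the summed neutrophil markers as a further term (red), filled where the adjusted p was under 0.05. On Il1b 7 of 9 blue points are filled and no red one, and on Casp1 the red point of Casp4 remains filled at 0.97.

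Some monocyte markers also rose with Il1b, and some lymphocyte markers fell. The log2 sum of the monocyte markers had r of 0.84 with Il1b, 0.86 with Nlrp3, 0.79 with Il1r2, 0.73 with Il1rn, 0.68 with Il1r1, 0.65 with Casp4, 0.62 with Il1rap, 0.58 with Casp1, 0.285 with Pycard and 0.058 with Il18, again as a description. Without controls 2, 8 and 12, r was 0.83 with Il1b, 0.815 with Nlrp3, 0.72 with Il1r2, 0.65 with Il1rn and 0.615 with Il1r1. It was then 0.65 with Casp4, 0.505 with Il1rap, 0.54 with Casp1, 0.48 with Pycard and 0.0755 with Il18. Without the 2 libraries farthest from the median sum, r was 0.32 with Casp1, 0.40 with Casp4, 0.505 with Il1r1 and -0.14 with Pycard. With Il1b r was then 0.73 and with Nlrp3 0.825. Of the 9 monocyte markers tested, 3 rose, namely Ccr1 with a slope of 1.14 ± 0.19 (SE), Cd14 with 0.94 ± 0.18 and Lyz2 with 0.62 ± 0.12, while Csf1r, the receptor that defines the monocyte lineage, had a slope of -0.17 ± 0.13 (SE, adjusted p = 0.37 by edgeR). Of 7 B cell markers tested, 4 fell, and of 10 T cell markers 2 fell, Cd4 and Cd28, named after their values were seen. None of the 6 cytotoxic cell, 7 platelet, 5 erythroid, 8 liver, 2 heart and 3 thymus markers tested passed, and of 3 fat markers Cfd rose. The B cell calls went from 4 to 1 without control 8 and to 0 without controls 2, 8 and 12, with a median slope of -0.37, -0.31 and -0.26 in turn. The T cell calls went from 2 to 0 without control 8 and to 1 without controls 2, 8 and 12, and were 4 with the code as a term, with a median slope of -0.19, -0.14, -0.16 and -0.25 in turn.

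The slope on Casp1 gave a less stable picture. Of the other 9 genes, 4 rose with Casp1 by edgeR and 0 fell, where 5.94% of the 12530 other genes rose and 9.29% fell. Casp4 had a slope of 1.35 ± 0.19 (SE, adjusted p = 0.0042), Il1rn of 3.00 ± 0.68 (adjusted p = 0.010), Il1rap of 2.67 ± 0.82 (adjusted p = 0.039) and Il1b of 1.69 ± 0.52 (adjusted p = 0.039). Il1r1 (3.35 ± 1.12, adjusted p = 0.054), Il1r2 (2.81 ± 1.02, adjusted p = 0.071), Nlrp3 (1.29 ± 0.56, adjusted p = 0.13), Pycard (0.27 ± 0.25, adjusted p = 0.50) and Il18 (0.26 ± 0.70, adjusted p = 0.85) were not called. Casp1 spanned only 2.27-fold, and the errors of these slopes were wider than those of the slopes on Il1b. The calls rested on control 8: without it edgeR called 0 of 9, with 4 at an unadjusted p under 0.05, and only 1 of 12545 genes in all, so that this count says nothing particular about the 9. The slopes were then 1.11 ± 0.22 (SE) for Casp4 (adjusted p = 0.053), 2.41 ± 0.89 for Il1rn, 2.59 ± 1.04 for Il1rap, 1.26 ± 0.67 for Il1b and 3.42 ± 1.40 for Il1r1. Without controls 2, 8 and 12 it also called 0 of 9, with 4 at an unadjusted p under 0.05, and 1 of 12153 genes in all. With the neutrophil sum as a further term, Casp4 alone was called among the 9 (slope 0.97 ± 0.21, adjusted p = 0.023), where 692 of 12531 genes were called in all. In that fit 6 of the 8 liver markers rose with Casp1 as well, with a median slope of 22.2. All 8 were highest in control 2, where Alb reached 330270 normalized counts against a median of 17.5. The part of that library in these slopes was not tested. Casp1 and Casp4 are related genes, and reads that fit several genes were divided between them in the counting, so both counts are uncertain to that extent. The part of shared reads in their relation was not tested. Values that were not whole occurred in 6 libraries for Casp1 and in 5 for Casp4, against 2 to 15 libraries over the 10 genes.

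The wider pathway was followed in 3 lists of other genes. Of 8 further ligands and receptors 6 were abundant enough to be tested, and 2 rose with Il1b by edgeR: Il18rap, the accessory chain of the interleukin-18 receptor (0.76 ± 0.23, SE, adjusted p = 0.029), and Il18bp, the secreted inhibitor of interleukin-18 (0.52 ± 0.14, adjusted p = 0.013). Il18rap ran from 13.4 in control 2 to 253 in control 8. Il1a, the other interleukin-1 ligand, was too low to test, with a mean of 7.12 normalized counts and 0 in 3 libraries. The median slope of the 6 was 0.27 against -0.05 for all genes. Without control 8, and likewise without controls 2, 8 and 12, 1 of the 6 rose.

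Of 18 signaling genes, all tested, 8 rose and 1 fell, with a median slope of 0.13. The steepest were Nfkbiz and Nfkbia, NF-kB target genes that code for inhibitor-like and inhibitor proteins of that factor, at 0.95 ± 0.15 (SE, adjusted p = 0.00038 by edgeR) and 0.83 ± 0.14 (adjusted p = 0.00082). Myd88, the adaptor of the receptor, had 0.83 ± 0.13 (adjusted p = 0.00033), with levels from 1521 in control 6 through a median of 4115 to 7877 in control 8. Irak3, the kinase-like brake on this pathway, had 0.68 ± 0.17 (adjusted p = 0.011). Tab1, a partner of the kinase TAK1, fell (-0.24 ± 0.081, adjusted p = 0.048). Without control 8, 6 of the 18 rose and 0 fell, and without controls 2, 8 and 12, 5 rose and 0 fell.

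Of 14 further inflammasome genes 13 were tested, and 5 rose and 0 fell, with a median slope of 0.04. Nlrc4, a sensor of bacterial proteins, had 0.81 ± 0.11 (SE, adjusted p = 0.00021 by edgeR), Mefv, the gene of pyrin, 0.80 ± 0.18 (adjusted p = 0.0062), Nlrp12 0.78 ± 0.16 (adjusted p = 0.0035) and Ninj1, which ruptures the membrane of dying cells, 0.46 ± 0.12 (adjusted p = 0.014). The fifth, Casp8, is named after its values were seen. Gsdmd, the pore-forming target of the inflammatory caspases, had -0.09 ± 0.077 (adjusted p = 0.43). Sensors of this list were thus found both among the rising genes and among those not called, since Aim2, the DNA sensor, had -0.04 ± 0.094 (adjusted p = 0.80). Gsdmd and Aim2 were picked for their roles after their values were seen. Without control 8, 4 of the 13 rose, and without controls 2, 8 and 12, 4 of 12. With the neutrophil sum as a further term, 0 genes of the 3 pathway lists were called. In that fit 1 of 12531 genes was called in all, Il1b itself, so this count says nothing particular about the lists.

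**Figure D5:**
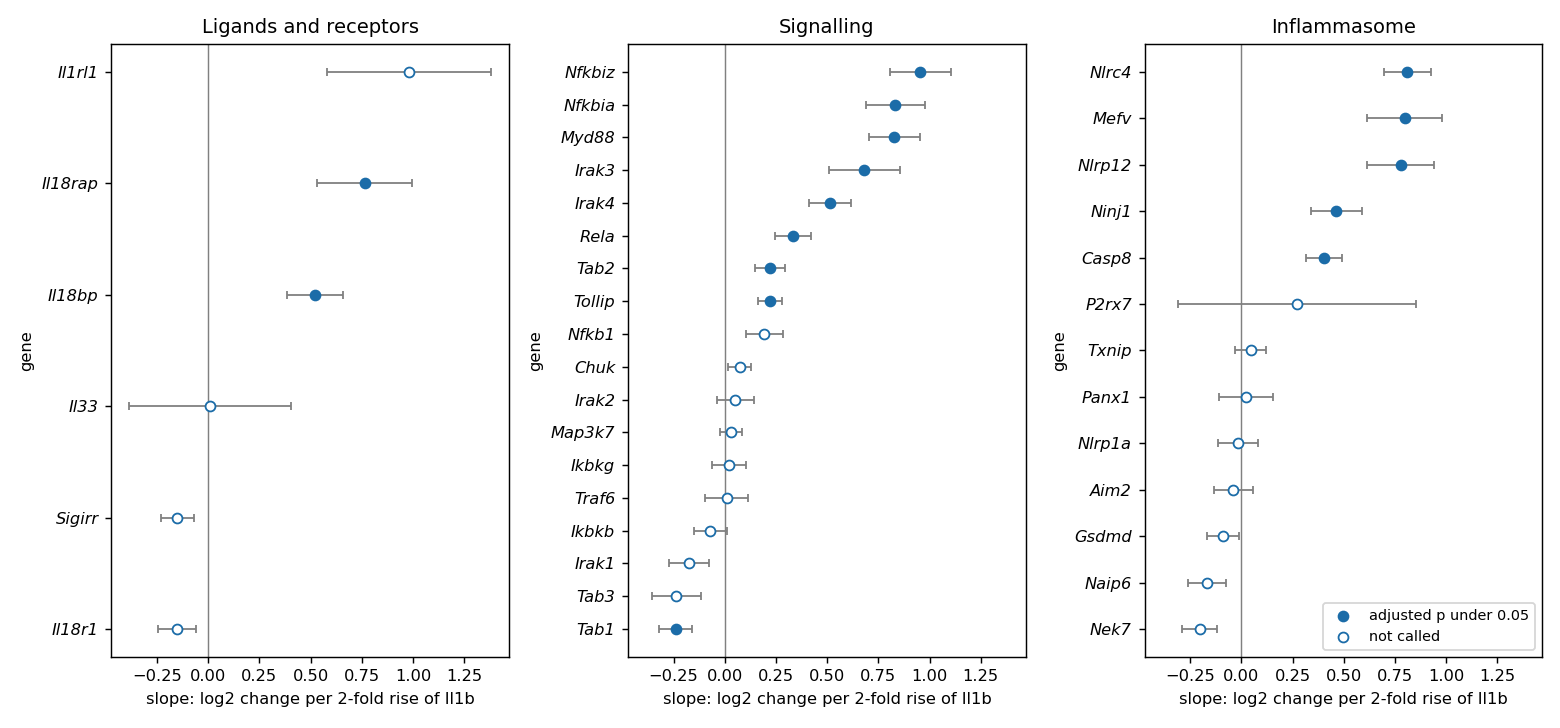
Slope on Il1b, in log2 units per log2 unit, of the tested genes of 3 pathway lists, as points with bars of 1 SE from the fit over 16 libraries, filled where the adjusted p was under 0.05. Of the ligands and receptors 2 of 6 are filled, of the signaling genes 9 of 18 (1 of them falling) and of the inflammasome genes 5 of 13.

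The genes whose pattern was most like that of each of the 10 were sought among genes with a symbol and a mean of at least 100 normalized counts, by Pearson's r over the 16 libraries, as a description. For Il1b they were St3gal4 (0.94), Gadd45b (0.94), Cystm1 (0.94), Clec4e (0.94) and Ifngr2 (0.94). For Il1rn they were 4930503B20Rik (0.99), Azin1 (0.98) and Nfe2l2 (0.98), for Il1r1 Arg2 (0.98), Cyr61 (0.97) and 5730508B09Rik (0.96), for Il1r2 C1rl (0.99), Alox5ap (0.99) and Dgat2 (0.98), and for Il1rap they included Ap1ar (0.97) and Tmco4 (0.97). For Nlrp3 they were Glipr2 (0.98), Msl1 (0.98) and Tpd52 (0.98).

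The highest r was lower for Pycard and Il18 than for the other 8 genes. The genes closest to Casp1 included Rbm4 (0.95) and Dusp11 (0.92). Casp4 was closest to Syap1 (0.93), Rab1 (0.93) and Atp6v0b (0.93), and Pycard to Bloc1s2 (0.85), Utp11l (0.84) and Rsl24d1 (0.83). The gene most like Il18 was Ncr1, an activating receptor of natural killer cells, with r of 0.80, followed by Nrf1 (0.79) and Spg20 (0.75). The log2 sum of 6 cytotoxic cell markers, which includes Ncr1, had r of 0.35 with Il18.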

How the data were processed

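The libraries were depleted of alpha and beta globin mRNA, selected for polyadenylated RNA and sequenced as paired ends with a stranded kit. The authors clipped the reads, aligned them with Bowtie 0.12.9 to an Ensembl rat transcriptome (rn5) and deposited RSEM 1.2.0 estimated counts per gene, not normalized, in which a read that fits several genes is divided. The study's replacement of outlying values was not applied. Here the counts were rounded and kept for the 18031 genes common to all files. The 10 genes, the pathway and marker lists and the naming rule (pathway genes called on Il1b, up to 4 rising and 4 falling by slope, up to 3 abundant genes per marker list, and the nearest patterns) were chosen with earlier results of these data known. A few genes that the rule names are not reported here.

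Levels are counts over DESeq2 1.42.0 size factors. Tests used edgeR 4.0.16 (R 4.3.3) with TMM scaling, quasi-likelihood F-tests and Benjamini-Hochberg adjustment. The slope fits kept genes with a mean of at least 10 and the fits between codes used filterByExpr. The slope SE is the slope over the root of F. limma 3.58.1 voom and DESeq2 served as alternatives. The code was tested on simulated counts. Correlations used numpy 2.4.6 in Python 3.11.15. The codes came from the library names, and the labels do not say what they mark. The lowest chi-square per degree of freedom between 2 libraries was 48.0, so none was a repeated reading of the same library. A second library made from the same RNA would not be told apart in this way. The labels number the animals and pair none, and p-values measure the spread between these 16 libraries. Library totals of 21466776 to 31189549 limit counting error to at most 10.2% of the mean count for the 10 genes.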

Additional observations from a re-analysis of the deposited data

Results flagged for a closer look

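Within codes B and D, which hold 4 or more libraries each, the gap of the highest or lowest library to its neighbour was set against the range of the code on the log2 scale for each of the 10 genes. Of these 20 comparisons 2 passed Dixon's limit, where chance gives about 1. Il1b in control 14 stood above the other 3 libraries of code D, with a gap of 0.839 of the range (31095 normalized counts in control 14, 16454 to 18232 in the others). Nlrp3 in control 12 stood below the other libraries of code D, with a gap of 0.962 of the range (1889 in control 12, 4032 to 4155 in the others). The cause was not tested.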

How the results depend on the processing

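No paired analysis was possible because the labels give 1 group. The count of 0 of 10 genes between codes held under each of the 5 alternatives and when any of the 12 libraries was left out. On Il1b, 6 or 7 of 9 genes were called when any single library was left out, 4 without controls 6 and 8 (Casp1, Casp4 and Il1r1 were lost, at adjusted p = 0.42, 0.092 and 0.055 by edgeR, with slopes of 0.14, 0.29 and 1.57) and 0 with the neutrophil sum as a further term, chosen after seeing the data. On Casp1, 0 to 6 were called when a library was left out. The count was 2 with no filter on low counts, 1 with total count scaling, 1 with the neutrophil sum, and 0 without controls 2, 8 and 12 or without controls 4 and 8. Total count scaling moved the median slope of all genes on Casp1 to -0.47 and the median log2 difference of all genes to -0.50 between codes A and B and 0.53 between codes B and D, and values there are relative to those shifts. Over all genes, DESeq2 called 563 between codes A and B and 742 between codes B and D, where edgeR called 0 and 298. The genes called on Il1b, Il1b included, fell from 2432 to 634 with total count scaling, to 1439 without controls 2, 8 and 12 and to 1 with the neutrophil sum. Those called on Casp1 fell from 1909 to 1 without control 8. Of the 13 correlations, 7 to 10 had an unadjusted permutation p under 0.05 over the 5 alternatives, and 8 of 10 genes lay above the median CV under both alternatives run for it. Centring within codes is among those 5, and its permutation p-values are likely too small. The cause of the changes was not tested.

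Sign changes concerned slopes that were not called under that alternative. With the neutrophil sum, slopes on Il1b were -0.37 for Il1r1, -0.072 for Il1rap, -0.61 for Il18 and 0.049 for Pycard, and on Casp1 they were -0.19 for Il1r1, -0.69 for Il1r2, -0.46 for Il18 and -0.44 for Nlrp3. The slope of Pycard on Il1b was 0.013 with the code as a term and 0.025 without controls 2, 8 and 12, and it ran from -0.084 to 0.043 when any single library was left out (above 0 without control 3 or 8). That of Il18 on Il1b ran from -0.025 to 0.213 likewise (below 0 without control 3 or 4). On Casp1, Il18 had -0.24 and Pycard -0.16 with total count scaling, and Il18 had -0.18 with the code as a term and -0.033 without controls 4 and 8. The correlation of Casp1 with Il18 was -0.058 without controls 4 and 8 and -0.0084 centred within codes. Depth limits Il18 most, whose lowest count was 22.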
